A study of Mus musculus with 6 samples.

Results

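Fatty acid oxidation was described here through 39 mouse genes, from the carnitine shuttle that carries acyl groups into mitochondria to the enzymes of mitochondrial and peroxisomal β-oxidation and the enzymes that act on their products. For each gene the brightest probe set on average was taken among those that carry its symbol and no other in the platform's annotation, and 38 of the 39 genes had one, out of 30176 genes with a probe set of their own on the array. Etfb had none, because its only probe set also carries the symbols of a microRNA. The expression signal of these genes was compared between MI hearts and sham hearts.

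The MI group was 3 samples of peri-infarct tissue from male C57BL/6 mice, taken 4 weeks after a myocardial infarction (MI) was produced by tying the left anterior descending coronary artery. The sham group was 3 samples of the matching region of male C57BL/6 mice that had the same operation without the ligation, taken at the same time. The labels name no other allele and no treatment in either group, and ages are not given in the sources used here. Total RNA of each sample was hybridized to 1 Affymetrix mouse transcriptome array 1.0, 6 arrays in all, and values are log2 signals as deposited. The highest signal of an array was 19.79 to 19.93, and log2 fold changes, the MI mean minus the sham mean, are on the scale of these values. Such values run above the range of scanner intensities that RMA starts from, so how the scale was set is not known, and a fall of 2-fold means 1 unit of the values as deposited. Nothing states that each array is a separate heart, so p-values measure the spread between these samples, which may be technical. An exact permutation test of 1 gene with 3 arrays against 3 cannot give a p below 0.1.

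The adult heart draws most of its energy from long-chain fatty acids. An acyl-CoA is passed to carnitine at the outer mitochondrial membrane, carried across the inner membrane and passed back to CoA, and malonyl-CoA holds back the first of these transfers. Inside the matrix each turn of the spiral has a dehydrogenation, a hydration, a second dehydrogenation and a thiolytic cleavage. The enzymes differ in the chain lengths they act on, with overlap, and electrons pass through the electron transfer flavoprotein to ubiquinone. Peroxisomes shorten very long and branched chains with enzymes of their own.

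All 38 genes had a lower mean signal in MI than in sham, and 23 of them passed the test (limma, adjusted p under 0.05), which is 60.5% of the 38. With the methods' t-test, on the same values and after Benjamini-Hochberg adjustment, 5 of the 38 passed (Acacb, Acadm, Cpt1b, Etfdh and Hadha), against 0.479% of all probe sets tested called lower. Over all 32979 probe sets tested, 3.64% were called lower in MI. None of the 38 was called higher, against 2.97% of all probe sets tested. At an unadjusted p under 0.05 none was higher either, while 36 were lower. Of all 32979 probe sets tested, 4364 were lower and 3786 higher at that threshold. The median log2 fold change of the 38 genes was -0.79, against 0.01 over all probe sets tested, and 10 genes were called with a fall of 2-fold or more. In 37 of the 38 genes, 97.4%, all 3 MI arrays lay below the lowest sham array. That held for 16.8% of all probe sets tested, and the opposite order for 15%. The exception was Acot13, whose groups overlapped. Of the 15 genes not called, 9 had an adjusted p between 0.05 and 0.1, and in 13 the 95% interval of the log2 fold change lay below 0.

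**Figure D1:**
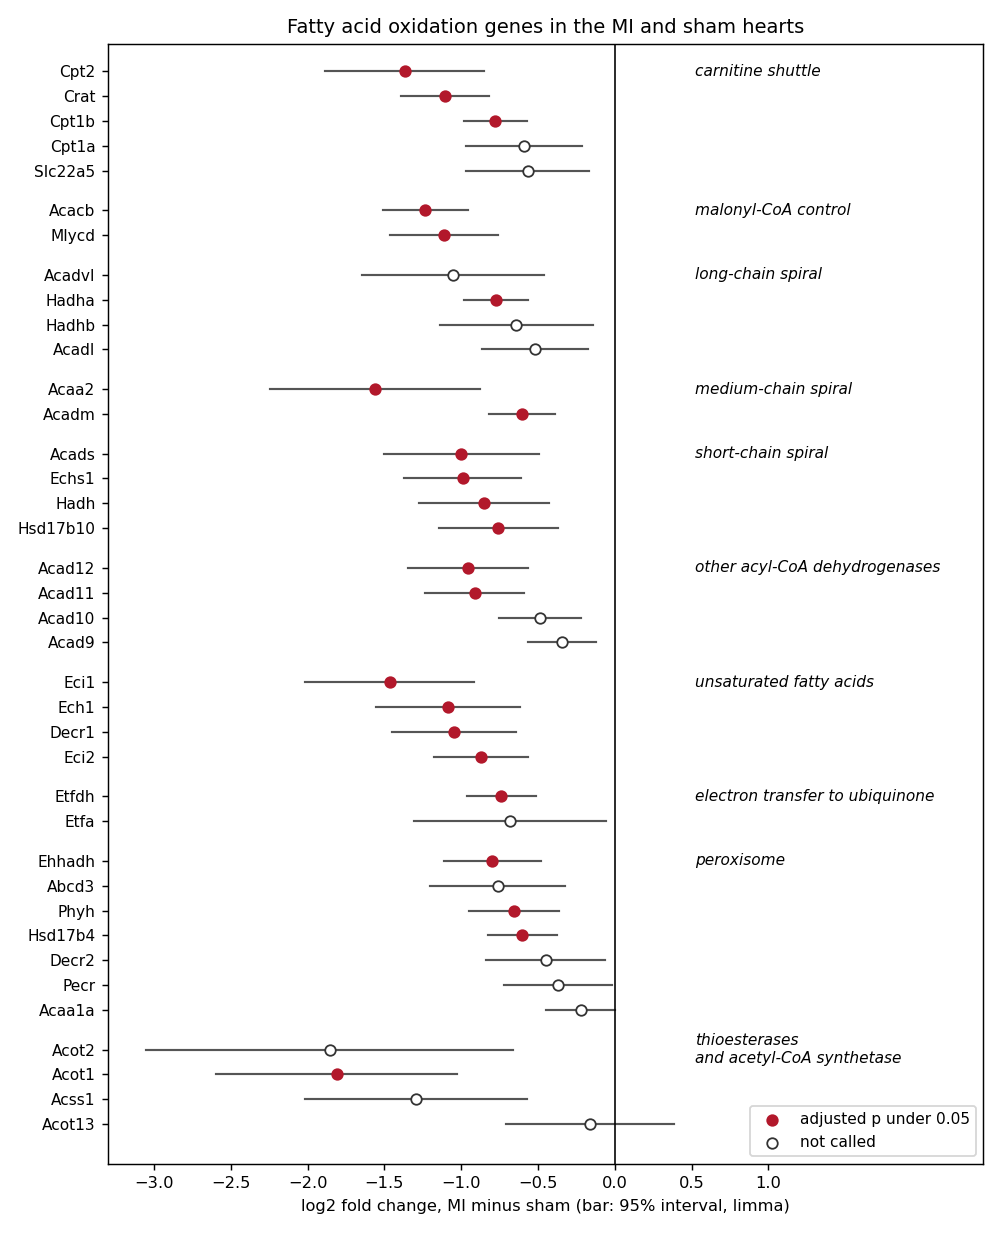
Log2 fold change (MI minus sham, x axis) of the 38 fatty acid oxidation genes (rows, grouped by step), with the 95% interval of limma as a bar and 3 arrays per group. Filled points are the 23 genes called lower, open points the 15 not called, and all 38 points lie left of 0.

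The 6 arrays did not weigh equally in these calls. Leaving out 1 array at a time, the number of the 38 genes called lower was 0 without MI 1, MI 2, sham 2 or sham 3. It was 32 without MI 3, against 7.37% of all probe sets tested, and 5 without sham 1, against 0.522%. In each of these fits between 32 and 38 genes stayed lower at an unadjusted p under 0.05. Of all 32979 probe sets tested, 3200 to 5327 were lower at that threshold in these fits. Over all probe sets tested, 0 were called in either direction without MI 1, sham 2 or sham 3, 61 without MI 2, 327 without sham 1 and 4687 without MI 3. MI 3 had the highest MI value in 28 of the 38 genes and the lowest in 6, namely Cpt1a, Crat, Decr2, Acot1, Acot2 and Acss1. Sham 1 had the lowest sham value in 22. With array weights in limma, MI 1 was given the highest weight, 5.63, against 0.646 for MI 2 and 0.228 for MI 3, the lowest. The MI mean of that fit thus rested mostly on MI 1. All 38 genes were called lower in it, against 17% of all probe sets tested. The deviations of MI 3 and sham 1 from their group means ran together over all probe sets tested (r = 0.50). Those of MI 2 and sham 1 ran opposite (r = -0.51), and the other pairs of an MI and a sham array lay between -0.37 and 0.37. Deviations within a group of 3 arrays depend on each other, so these values are not separate readings. With the arrays centred on their medians 26 genes were called lower, against 4.76% of all probe sets tested, and with quantile normalization 29, against 4.58%. These 2 settings also moved the share of lower among all calls to 65.3% and 66.8%, against 55.0% in the values as deposited.

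**Figure D2:**
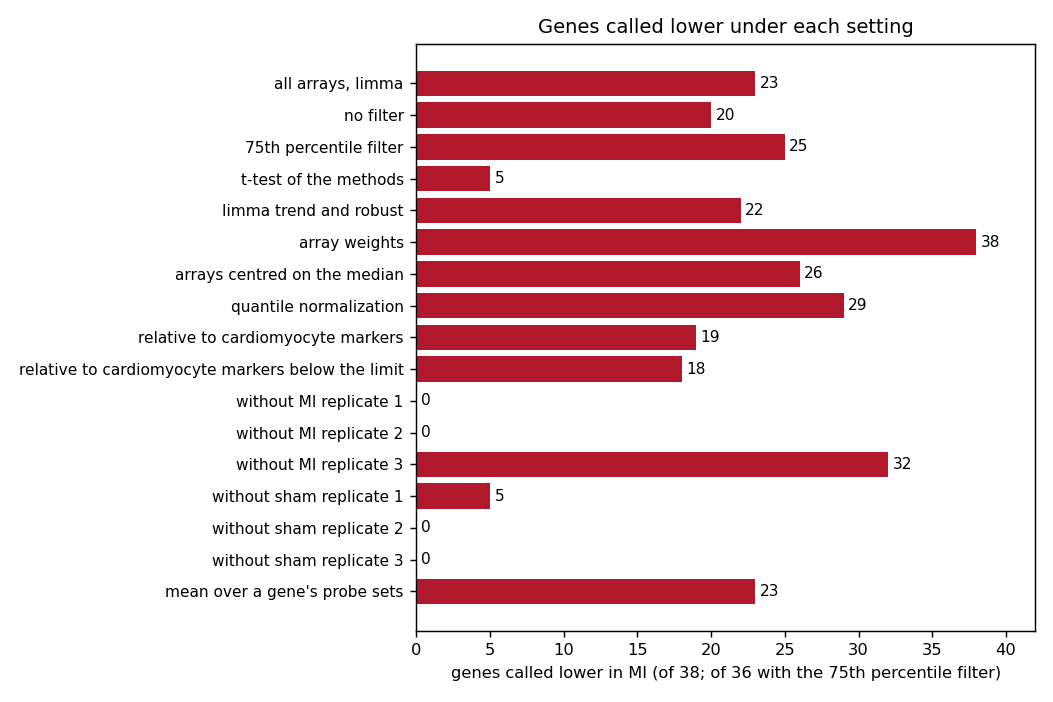
Number of the 38 fatty acid oxidation genes called lower in MI (x axis) under each of 17 settings (rows), at an adjusted p under 0.05. The bars run from 0 to 38, with 23 for the fit on all arrays and 0 where MI 1, MI 2, sham 2 or sham 3 was left out; the fit with the replicate number as a block, not drawn, also gave 0.

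Markers of several cell types differed between the groups as well. All 14 cardiomyocyte markers lay above the highest background control in every array. Of these 14, 1 was called lower (Ldb3, log2 fold change -0.48), which is 7.14% against 3.64% of all probe sets tested. The median log2 fold change of the 14 was -0.08. In 8 of the 14, 57.1%, all MI arrays lay below the sham range, among them Ryr2 (log2 fold change -0.89). That order held for 16.8% of all probe sets tested. However, 5 of the 14 (Myh6, Actc1, Tnnt2, Atp2a2 and Mb) lay at an upper limit of the signal. They were at or near the maximum of the array, or at a constant distance from it, where a difference can be understated. Of these 5, Myh6 and Atp2a2 (log2 fold changes -0.09 and -0.08) still had all MI arrays below the sham range. The mean log2 signal of the other 9 was 16.16, 16.01 and 16.25 in the MI arrays and 16.41, 16.39 and 16.42 in the sham arrays, with a median log2 fold change of -0.33. Of 7 fibroblast markers, 6 were called higher, against 2.97% of all probe sets tested. The mean log2 signal of the 7 was 13.43, 13.32 and 12.56 in the MI arrays, MI 3 being the lowest. In the sham arrays it was 9.58, 10.04 and 9.97. Of 8 macrophage and monocyte markers 4 were called higher, against the same 2.97% (mean log2 signal 8.78 to 9.29 in MI and 7.92 to 8.37 in sham). Cd163, on the same list, went the other way, with all MI arrays below the sham range (log2 fold change -0.52), and was not called. Of 7 endothelial and 5 smooth muscle and pericyte markers none was called. Of the brown adipocyte markers Cidea was above the highest background control in all 6 arrays and lower in each MI array, at 9.02 to 9.15 in MI and 9.42 to 9.64 in sham, and was not called (log2 fold change -0.42). Of the white adipocyte markers 1 of 5 was tested, Retn, whose groups overlapped (4.26 to 6.85 in MI and 4.25 to 5.10 in sham). The other white adipocyte markers Adipoq, Cidec, Plin1 and Lep did not pass the filter on low signal, and brown adipocyte Ucp1 read 3.32 to 3.50 in MI and 3.26 to 3.46 in sham, under the highest of the background controls (5.12 to 6.08 per array). The part of these shifts in cell makeup in the fall of the oxidation genes was not tested, and in pieces of tissue fewer cardiomyocytes and less RNA of these genes per cardiomyocyte cannot be told apart. When each array was set relative to the mean of the 14 cardiomyocyte markers, which moved the median of all probe sets to 0.20, 19 of the 38 genes were called lower (median log2 fold change -0.60), against 1.91% of all probe sets tested. Relative to the 9 markers below the upper limit, an alternative added after the data were seen that moved the median of all probe sets to 0.28, 18 of the 38 genes were called lower (median -0.52), against 1.57% of all probe sets tested.

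The carnitine shuttle had 3 of its 5 genes called lower, with a median log2 fold change of -0.78. Cpt2, the inner-membrane transferase that hands the acyl group back to CoA, read 11.96, 12.42 and 12.18 in the MI arrays, against 13.14, 13.79 and 13.73 in the sham arrays (log2 fold change -1.37, SE 0.21, adjusted p = 0.0251). The signal of Crat, which exchanges acetyl and other short acyl groups between CoA and carnitine, was 12.12, 12.05 and 12.01 in the MI arrays and 12.96, 13.29 and 13.25 in the sham arrays (log2 fold change -1.11, SE 0.12, adjusted p = 0.0142). For Cpt1b, the muscle form of the outer-membrane transferase that starts the shuttle, the MI arrays gave 14.93, 14.83 and 14.83 and the sham arrays 15.60, 15.68 and 15.63 (log2 fold change -0.78, SE 0.085, adjusted p = 0.0142). In each of these the highest MI array lay at least 0.67 log2 units below the lowest sham array. Within the MI group Cpt1b spread least, with an SD of 0.06 in MI and 0.04 in sham (n = 3 each). Cpt1a, the liver form of the same enzyme, which the heart also makes, read 10.51, 10.37 and 10.14 in the MI arrays and 11.19, 10.81 and 10.80 in the sham arrays and was not called (log2 fold change -0.59, SE 0.16, adjusted p = 0.0787). Not called was Slc22a5, the carnitine transporter of the cell membrane, with 7.38, 7.42 and 7.73 in the MI arrays and 7.92, 8.36 and 7.96 in the sham arrays (log2 fold change -0.57, SE 0.16, adjusted p = 0.0984). The groups of these last 2 genes did not overlap either, with the narrower gap, 0.18 log2 units, in Slc22a5.

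Both genes among the 39 that make or break down malonyl-CoA, the inhibitor of the shuttle, were lower, and their products act in opposite directions. Acacb, the acetyl-CoA carboxylase at the outer mitochondrial membrane that makes malonyl-CoA, read 10.66, 10.50 and 10.80 in the MI arrays, against 11.84, 12.00 and 11.84 in the sham arrays (log2 fold change -1.23, SE 0.11, adjusted p = 0.0119). The signal of Mlycd, the decarboxylase that breaks it down, was 8.17, 7.96 and 8.41 in the MI arrays and 9.33, 9.40 and 9.14 in the sham arrays (log2 fold change -1.11, SE 0.14, adjusted p = 0.0195). The Acacb groups lay 1.03 log2 units apart between the highest MI and the lowest sham array, the widest such gap among the 38 genes. Acacb was also the gene with the smallest adjusted p of the 38, and with Cpt1b it was called in 13 of 18 settings tried, more than any other of the 38.

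Of the 4 genes of the long-chain spiral, 1 was called, and the median log2 fold change was -0.71. For Hadha, the α subunit of the mitochondrial trifunctional protein, which carries the hydratase and the hydroxyacyl-CoA dehydrogenase, the MI arrays gave 16.38, 16.41 and 16.53 and the sham arrays 17.21, 17.20 and 17.24 (log2 fold change -0.77, SE 0.087, adjusted p = 0.0147). The 3 sham arrays of Hadha spread by an SD of only 0.02. Hadhb, the β subunit with the thiolase, read 17.34, 17.27 and 18.00 in the MI arrays and 18.22, 18.14 and 18.17 in the sham arrays and was not called (log2 fold change -0.64, SE 0.20, adjusted p = 0.121). MI 3 lay 0.14 log2 units under the nearest sham array in Hadhb, with MI 1 and MI 2 well below it. Not called was Acadvl, the very long-chain acyl-CoA dehydrogenase of the inner membrane, with 14.80, 14.37 and 15.34 in the MI arrays and 15.96, 15.93 and 15.79 in the sham arrays (log2 fold change -1.05, SE 0.24, adjusted p = 0.0582). Acadl, the long-chain dehydrogenase, read 16.97, 17.02 and 17.34 in the MI arrays and 17.45, 17.72 and 17.72 in the sham arrays and was not called (log2 fold change -0.52, SE 0.14, adjusted p = 0.0841). In all 3 of these genes MI 3 was the highest MI array, and no MI array reached the sham range. Without MI 3, all 4 genes of the long-chain spiral were called lower.

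Hadha and Hadhb, which encode both subunits of 1 enzyme, lie head to head on chromosome 5 with 272 bases between their RefSeq starts. Most of the sequence between them is shown, and whether it drives both genes was not tested. The 250 bases before the Hadhb start (GRCm38.p6, chr5:30155003-30155252, plus strand, from RefSeq) are these, with no capitals because none of the motifs searched below lies in them.
Hadhb: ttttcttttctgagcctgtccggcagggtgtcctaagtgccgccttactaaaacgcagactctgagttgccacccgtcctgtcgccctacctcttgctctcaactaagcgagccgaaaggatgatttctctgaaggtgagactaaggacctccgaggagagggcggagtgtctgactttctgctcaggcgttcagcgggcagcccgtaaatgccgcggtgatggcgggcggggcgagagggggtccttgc
The log2 fold changes of the pair were -0.77 and -0.64, with 95% intervals of -0.98 to -0.56 for Hadha and -1.14 to -0.14 for Hadhb.

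Both genes of the medium-chain spiral were called lower. Acaa2, the thiolase of the matrix, read 15.44, 14.96 and 16.10 in the MI arrays, against 17.15, 17.06 and 16.98 in the sham arrays (log2 fold change -1.56, SE 0.28, adjusted p = 0.0329). The signal of Acadm, the medium-chain acyl-CoA dehydrogenase, was 16.73, 16.76 and 16.90 in the MI arrays and 17.41, 17.37 and 17.41 in the sham arrays (log2 fold change -0.60, SE 0.09, adjusted p = 0.0232). Acaa2 spread widely among the MI arrays (SD 0.57 in MI and 0.08 in sham), with MI 2 lowest and MI 3 highest, and Acadm spread little (SD 0.09 in MI and 0.03 in sham). Relative to the 9 cardiomyocyte markers below the upper limit Acadm was no longer called (log2 fold change -0.34), and Acaa2 was.

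All 4 genes of the short-chain spiral were called lower, with a median log2 fold change of -0.92. For Acads, the short-chain acyl-CoA dehydrogenase, the MI arrays gave 9.47, 8.95 and 9.76 and the sham arrays 10.37, 10.42 and 10.41 (log2 fold change -1.001, SE 0.21, adjusted p = 0.0454). Echs1, the short-chain enoyl-CoA hydratase, read 12.38, 12.37 and 12.76 in the MI arrays, against 13.28, 13.58 and 13.63 in the sham arrays (log2 fold change -0.99, SE 0.16, adjusted p = 0.0258). In both the MI 3 array was the highest of its group and still below every sham array. The signal of Hadh, the hydroxyacyl-CoA dehydrogenase for medium and short chains, was 15.49, 15.43 and 15.86 in the MI arrays and 16.18, 16.64 and 16.51 in the sham arrays (log2 fold change -0.85, SE 0.17, adjusted p = 0.0442). For Hsd17b10, a hydroxyacyl-CoA dehydrogenase that also works in isoleucine breakdown, the MI arrays gave 10.10, 9.82 and 10.37 and the sham arrays 10.73, 10.93 and 10.92 (log2 fold change -0.76, SE 0.16, adjusted p = 0.0468). Of the 4, 1 was called with no filter on low signal (against 1.26% of all probe sets tested) and 0 with the methods' t-test. Hadh and Hsd17b10 lost the call relative to the cardiomyocyte markers, with log2 fold changes of -0.67 and -0.57.

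**Figure D3:**
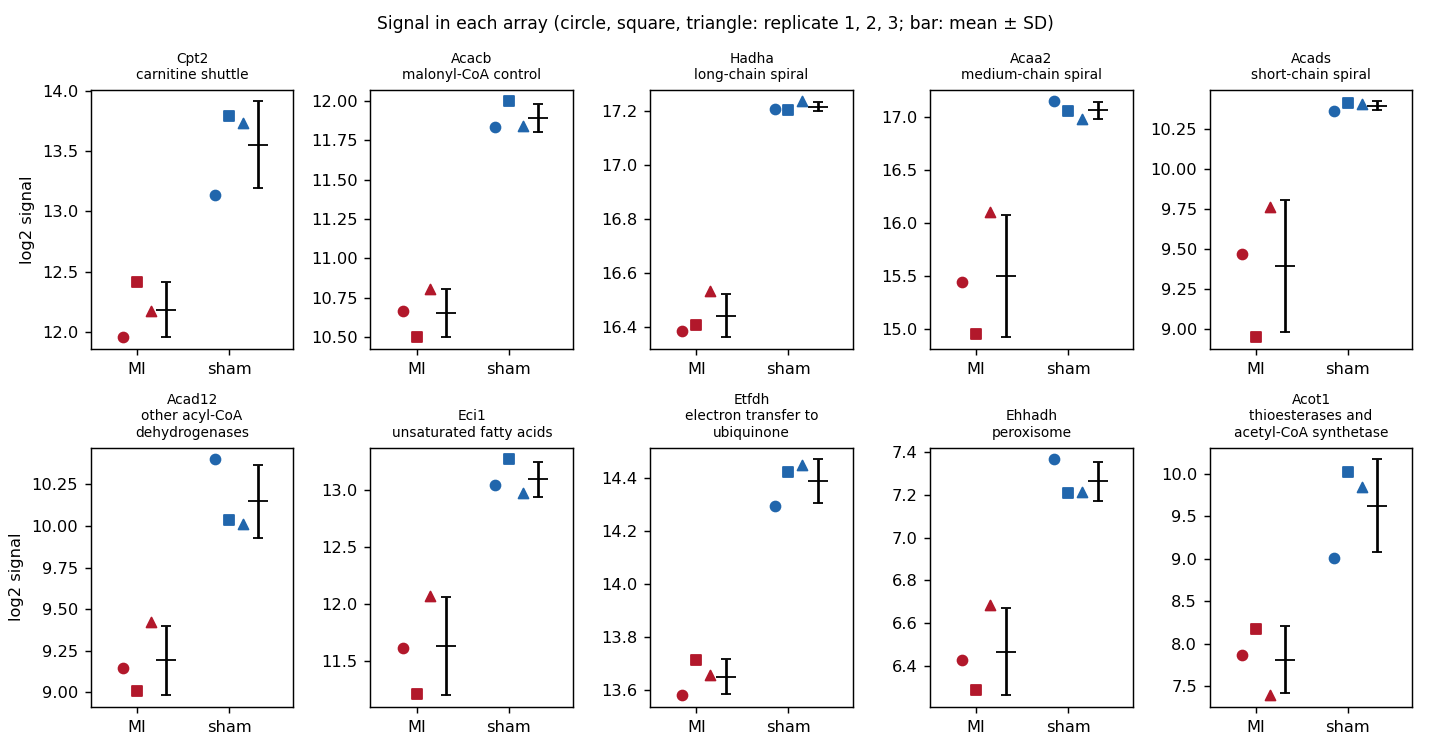
Log2 signal (y axis, a scale of its own in each panel that does not start at 0) in the 3 MI arrays (left, red) and the 3 sham arrays (right, blue) of the called gene with the largest fall in each of 10 steps; circle, square and triangle are replicates 1, 2 and 3 and the black bar is the mean ± SD. No MI point reaches the sham points in any panel, and the triangle of MI 3 is the lowest MI point for Acot1 alone.

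Among the other acyl-CoA dehydrogenases 2 of 4 were called, with a median log2 fold change of -0.70. Acad12, a mouse relative of Acad10, read 9.15, 9.01 and 9.42 in the MI arrays, against 10.40, 10.03 and 10.01 in the sham arrays (log2 fold change -0.96, SE 0.16, adjusted p = 0.0293). The signal of Acad11, which works on longer chains, was 11.34, 11.44 and 11.55 in the MI arrays and 12.27, 12.59 and 12.21 in the sham arrays (log2 fold change -0.91, SE 0.13, adjusted p = 0.0226). In Acad12 sham 1 was the highest array, in Acad11 sham 2. Not called was Acad10, another member of the family, with 5.38, 5.33 and 5.62 in the MI arrays and 5.99, 5.86 and 5.93 in the sham arrays (log2 fold change -0.49, SE 0.11, adjusted p = 0.0559). The Acad10 signal lay above the highest background control in 3 of the 6 arrays, and a difference so near the background can be understated. Acad9, which is also needed to assemble respiratory complex I, read 8.00, 8.05 and 8.20 in the MI arrays and 8.42, 8.44 and 8.42 in the sham arrays and was not called (log2 fold change -0.34, SE 0.091, adjusted p = 0.0802). Acad9 had the narrowest sham spread of all 38 genes, an SD of 0.01.

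All 4 genes that handle double bonds were called lower, with a median log2 fold change of -1.07. For Eci1, an enoyl-CoA isomerase of the matrix that moves a double bond into place, the MI arrays gave 11.61, 11.21 and 12.07 and the sham arrays 13.04, 13.27 and 12.97 (log2 fold change -1.46, SE 0.23, adjusted p = 0.0245). Ech1, a dienoyl-CoA isomerase, read 12.20, 11.83 and 12.59 in the MI arrays, against 13.26, 13.30 and 13.32 in the sham arrays (log2 fold change -1.09, SE 0.19, adjusted p = 0.0324). The signal of Decr1, the mitochondrial 2,4-dienoyl-CoA reductase, was 13.89, 14.07 and 14.42 in the MI arrays and 15.02, 15.16 and 15.33 in the sham arrays (log2 fold change -1.05, SE 0.17, adjusted p = 0.0255). These 3 fell by 2-fold or more. For Eci2, an isomerase found in mitochondria and peroxisomes, the MI arrays gave 11.36, 11.34 and 11.61 and the sham arrays 12.14, 12.44 and 12.34 (log2 fold change -0.87, SE 0.13, adjusted p = 0.0224). In Eci1, Ech1, Decr1 and Eci2 alike MI 3 was the highest MI array, and all 4 were called relative to either form of the cardiomyocyte markers but none with the methods' t-test.

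Electron transfer from the acyl-CoA dehydrogenases to ubiquinone had 2 testable genes. Etfdh, the oxidoreductase of the inner membrane that passes the electrons to ubiquinone, read 13.58, 13.71 and 13.66 in the MI arrays, against 14.30, 14.42 and 14.45 in the sham arrays (log2 fold change -0.74, SE 0.092, adjusted p = 0.0175). Not called was Etfa, the α subunit of the electron transfer flavoprotein, with 15.05, 14.81 and 15.82 in the MI arrays and 15.95, 15.90 and 15.88 in the sham arrays (log2 fold change -0.68, SE 0.26, adjusted p = 0.172). MI 1 and MI 2 of Etfa lay far below the sham arrays and MI 3 just under them, by 0.05 log2 units. The probe set that Etfb, the β subunit, shares with a microRNA read 12.74, 12.12 and 13.52 in the MI arrays, against 13.99, 13.54 and 13.48 in the sham arrays, and was not called (log2 fold change -0.88, SE 0.36, adjusted p = 0.202). Its MI 3 signal lay inside the sham range.

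The peroxisomal genes had 3 of 7 called lower and a median log2 fold change of -0.60. The signal of Ehhadh, the L-bifunctional enzyme with hydratase and dehydrogenase activities, was 6.43, 6.28 and 6.69 in the MI arrays and 7.37, 7.21 and 7.21 in the sham arrays (log2 fold change -0.80, SE 0.13, adjusted p = 0.0271). For Hsd17b4, the D-bifunctional enzyme that handles very long and branched chains, the MI arrays gave 11.48, 11.65 and 11.61 and the sham arrays 12.16, 12.13 and 12.25 (log2 fold change -0.60, SE 0.093, adjusted p = 0.0245). Phyh, which starts the α-oxidation of phytanic acid, read 15.70, 15.76 and 15.98 in the MI arrays, against 16.35, 16.61 and 16.45 in the sham arrays (log2 fold change -0.66, SE 0.12, adjusted p = 0.0343). None of the 7 fell by 2-fold. Abcd3, a transporter of acyl-CoA into the peroxisome, read 11.55, 11.44 and 12.09 in the MI arrays and 12.49, 12.45 and 12.41 in the sham arrays and was not called (log2 fold change -0.76, SE 0.18, adjusted p = 0.0622). Not called was Decr2, the peroxisomal dienoyl-CoA reductase, with 8.67, 8.89 and 8.34 in the MI arrays and 8.96, 9.13 and 9.16 in the sham arrays (log2 fold change -0.45, SE 0.16, adjusted p = 0.150). These 2 differed in which MI array was highest, MI 3 in Abcd3 and MI 2 in Decr2. Pecr, a trans-2-enoyl-CoA reductase, read 5.68, 5.45 and 5.81 in the MI arrays and 5.98, 6.22 and 5.84 in the sham arrays and was not called (log2 fold change -0.37, SE 0.14, adjusted p = 0.186). Not called was Acaa1a, the peroxisomal thiolase, with 6.84, 6.74 and 6.91 in the MI arrays and 6.99, 7.12 and 7.06 in the sham arrays (log2 fold change -0.22, SE 0.093, adjusted p = 0.209). Acaa1a was 1 of 2 genes among the 38 whose 95% interval reached 0, and relative to the 9 cardiomyocyte markers below the upper limit its log2 fold change was 0.04. Relative to the cardiomyocyte markers Hsd17b4 and Phyh were no longer called, which left Ehhadh.

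The remaining genes, 3 acyl-CoA thioesterases and an acetyl-CoA synthetase, held both the largest mean falls and the smallest. The signal of Acot1, a cytosolic thioesterase that frees fatty acids from CoA, was 7.87, 8.18 and 7.40 in the MI arrays and 9.01, 10.02 and 9.85 in the sham arrays (log2 fold change -1.81, SE 0.32, adjusted p = 0.0323). Acot2, its mitochondrial relative, read 15.09, 15.95 and 14.16 in the MI arrays and 16.30, 17.21 and 17.25 in the sham arrays and was not called (log2 fold change -1.86, SE 0.49, adjusted p = 0.0791). Acot1 and Acot2 are close copies of each other, and whether probes of one also bind the other was not checked, so their signals are uncertain as separate readings. Not called was Acss1, which activates acetate in the matrix, with 14.72, 15.13 and 13.96 in the MI arrays and 15.68, 16.02 and 16.00 in the sham arrays (log2 fold change -1.29, SE 0.30, adjusted p = 0.0580). In Acot1, Acot2 and Acss1 the order of the MI arrays was the reverse of the common one, MI 3 being the lowest and MI 2 the highest. Acot13, another thioesterase bound to mitochondria, read 15.87, 16.05 and 16.70 in the MI arrays and 16.22, 16.43 and 16.44 in the sham arrays and was not called (log2 fold change -0.16, SE 0.22, adjusted p = 0.700). MI 3 was the highest of all 6 arrays in Acot13, and without MI 1 its log2 fold change was 0.0077.

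The steps can be set side by side by the median over their genes. From the largest fall to the smallest, the median log2 fold changes were -1.55 for the thioesterases and Acss1, -1.17 for malonyl-CoA control, -1.08 for the medium-chain spiral, -1.07 for unsaturated fatty acids, -0.92 for the short-chain spiral, -0.78 for the carnitine shuttle, -0.71 for electron transfer, -0.71 for the long-chain spiral, -0.70 for the other acyl-CoA dehydrogenases and -0.60 for the peroxisome. The steps have between 2 and 7 genes each, and the differences between steps were not tested. Enzymes can act on more than 1 chain length, and Hadh, for medium and short chains, was counted in the short-chain spiral only. Together the 10 genes of the spiral at its 3 chain lengths had 7 called and a median of -0.81. By array, the median over all 38 genes of the difference from the sham mean was -0.88, -0.97 and -0.69 in MI 1, 2 and 3, against -0.05, 0.05 and 0.01 in sham 1, 2 and 3. In the long-chain spiral MI 3 stood at -0.42 and MI 1 and MI 2 at -0.83 and -0.86, whereas in the carnitine shuttle the MI arrays stood at -0.71, -0.81 and -0.81. For the thioesterases and Acss1 they stood at -1.47, -0.87 and -2.08.

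**Figure D4:**
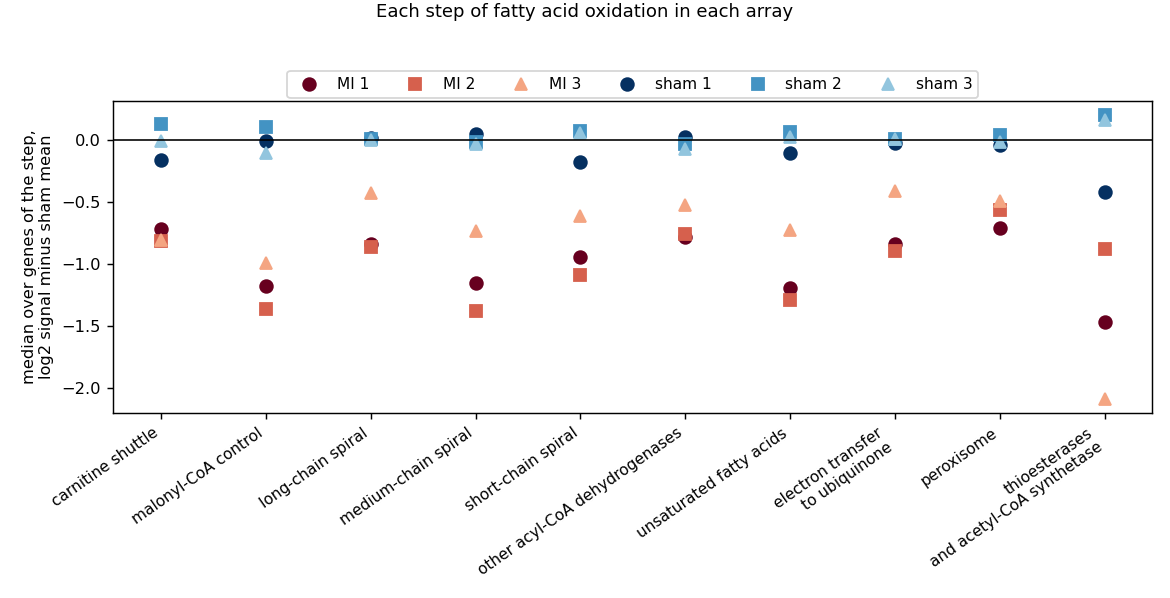
Median over the genes of a step of the log2 signal minus the sham mean (y axis) in each of the 6 arrays, for the 10 steps along the x axis; red points are the MI arrays and blue points the sham arrays. Every MI point lies below every sham point of its step, and MI 3 (light triangle) is the highest MI point in all steps but the carnitine shuttle and the thioesterases with Acss1, where it is the lowest, at -2.08.

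Promoters were looked at because the genes moved together. The RefSeq table of GRCm38.p6 gave 33 promoters (250 bases before to 50 after the start) for 32 of the 39 genes, among 32851 promoters in all. On both strands, 0 of the 32 genes held TCAAGGTCA, an element bound by oestrogen-related receptors, against 0.423% of all promoters, and 0 held AGGNCA, any base, AGGNCA, the direct repeat bound by PPAR with RXR, against 0.381%. The shorter AAGGTCA, searched after these gave no match and contained in the first of them, lay in 2 genes (Acacb and Acadm, 6.25%) against 4.72% of all promoters. The element of NRF1, a factor of genes for mitochondrial proteins, written as GCGC, any 2 bases, GCGC, lay in 6 of the 32 genes (18.8%) against 6.23% of all promoters, namely Abcd3, Acad10, Acad12, Etfb, Etfdh and Slc22a5. Of these 6, Acad12 and Etfdh were called lower. The parts that hold the element are shown for 4 of them with the element in capitals, each ending at the base before the start of transcription: Acad10 (chr5:121660511-121660570), Acad12 (chr5:121618939-121619038), Etfdh (chr3:79628768-79628907) and Slc22a5 (chr11:53891704-53891843), all on the minus strand.
Acad10: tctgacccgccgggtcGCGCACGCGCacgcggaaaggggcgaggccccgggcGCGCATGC
Acad12: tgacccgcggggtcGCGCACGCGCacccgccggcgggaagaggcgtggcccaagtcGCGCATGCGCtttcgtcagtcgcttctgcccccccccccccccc
Etfdh: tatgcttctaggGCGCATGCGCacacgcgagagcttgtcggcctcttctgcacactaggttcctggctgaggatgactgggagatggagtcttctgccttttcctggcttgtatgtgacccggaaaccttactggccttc
Slc22a5: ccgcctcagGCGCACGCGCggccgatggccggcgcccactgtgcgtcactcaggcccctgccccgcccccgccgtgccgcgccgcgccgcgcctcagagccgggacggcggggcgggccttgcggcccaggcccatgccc
In Acad10 a second match runs on past the start, and only its bases before the start are shown. Acad10 and Acad12 are neighbours on chromosome 5, and their log2 fold changes were -0.49 and -0.96. A match is a run of letters and was not tested as a binding site.

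Further genes of the pathway were counted from lists outside the 39 genes. Of 61 tested, 18 were called lower and 1 higher, against 3.64% and 2.97% of all probe sets tested. The median log2 fold change of the 61 was -0.39. Without MI 3, 30 of the 61 were called lower and 2 higher, against 7.37% and 6.84% of all probe sets tested. Without MI 2, 2 were called lower (against 0.0425%), and without sham 1, 3 were called lower (against 0.522%). Without MI 1, sham 2 or sham 3 none was called in either direction. Relative to the 14 cardiomyocyte markers 10 were called lower and 3 higher, against 1.91% and 7.02% of all probe sets tested. Relative to the 9 below the upper limit 7 were called lower and 4 higher, against 1.57% and 10.7%. Of 15 further mitochondrial genes 9 were called lower and 1 higher, against the 3.64% and 2.97% of all probe sets. For Ivd, the isovaleryl-CoA dehydrogenase of leucine breakdown, the MI arrays gave 11.78, 11.67 and 11.81 and the sham arrays 12.92, 12.88 and 12.99 (log2 fold change -1.18, SE 0.089, adjusted p = 0.00854). Slc25a20, the carrier that takes acylcarnitine across the inner membrane, read 13.54, 13.65 and 13.87 in the MI arrays, against 14.71, 14.91 and 14.84 in the sham arrays (log2 fold change -1.13, SE 0.12, adjusted p = 0.0142). Slc25a20 acts between Cpt1b and Cpt2 in the shuttle, and its groups did not overlap. The signal of Ecsit, a signalling adaptor that also serves in complex I assembly, was 9.82, 9.81 and 9.65 in the MI arrays and 10.75, 10.89 and 10.89 in the sham arrays (log2 fold change -1.08, SE 0.096, adjusted p = 0.0119). For Slc25a42, a mitochondrial CoA carrier, the MI arrays gave 6.37, 6.39 and 6.84 and the sham arrays 7.30, 7.59 and 7.56 (log2 fold change -0.95, SE 0.16, adjusted p = 0.0302). In both the MI arrays lay below the sham range. Cpt1c, the neuronal form of the transferase, read 5.30, 5.30 and 5.13 in the MI arrays, against 4.72, 4.72 and 4.81 in the sham arrays (log2 fold change 0.49, SE 0.093, adjusted p = 0.0368). Cpt1c is named because it was the only further gene called higher, its signal lay above the highest background control in 1 of 6 arrays, and with quantile normalization no further gene was called higher.

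Of the 4 tested genes of propionyl-CoA use, the route for odd and branched chains, 3 were called lower, against 3.64% of all probe sets tested. The signal of Mmut, the methylmalonyl-CoA mutase, was 12.02, 12.18 and 12.54 in the MI arrays and 13.04, 13.36 and 13.39 in the sham arrays (log2 fold change -1.01, SE 0.17, adjusted p = 0.0297). For Pcca, the α subunit of propionyl-CoA carboxylase, the MI arrays gave 11.97, 11.89 and 12.28 and the sham arrays 12.84, 12.99 and 12.99 (log2 fold change -0.89, SE 0.13, adjusted p = 0.0224). Pccb, its β subunit, read 10.73, 10.67 and 10.93 in the MI arrays, against 11.76, 11.37 and 11.58 in the sham arrays (log2 fold change -0.79, SE 0.14, adjusted p = 0.0303). The sham arrays of these 3 genes lay above every MI array. Carnitine synthesis had 2 of 4 tested genes called lower, against the same 3.64%. Bbox1, also listed for that route, did not pass the filter on low signal (3.62 to 3.76 in MI and 3.38 to 3.55 in sham). The signal of Aldh9a1, an aldehyde dehydrogenase of that route, was 7.82, 8.20 and 7.86 in the MI arrays and 9.03, 8.97 and 9.01 in the sham arrays (log2 fold change -1.04, SE 0.12, adjusted p = 0.0163). For Shmt2, a mitochondrial serine hydroxymethyltransferase, the MI arrays gave 7.72, 7.50 and 7.45 and the sham arrays 8.03, 8.24 and 8.39 (log2 fold change -0.66, SE 0.13, adjusted p = 0.0409). Among 24 further peroxisomal genes 4 were called lower, 16.7% against the same 3.64%, with a median log2 fold change of -0.29. Nudt7, a peroxisomal CoA diphosphatase, read 9.42, 9.76 and 10.16 in the MI arrays, against 10.84, 10.71 and 10.61 in the sham arrays (log2 fold change -0.94, SE 0.20, adjusted p = 0.0463). The signal of Pex10, a peroxin of the import machinery, was 5.42, 5.35 and 5.55 in the MI arrays and 6.02, 6.11 and 6.16 in the sham arrays (log2 fold change -0.66, SE 0.097, adjusted p = 0.0230). Pex10 lay above the highest background control in 4 of the arrays. For Pex7, the import receptor that also brings in Phyh, the MI arrays gave 8.83, 8.75 and 9.10 and the sham arrays 9.54, 9.41 and 9.43 (log2 fold change -0.56, SE 0.12, adjusted p = 0.0491). In these 3 the MI arrays lay below every sham array, and relative to the 9 cardiomyocyte markers below the upper limit no further peroxisomal gene was called. Nudt19, another CoA diphosphatase, read 8.96, 9.11 and 9.07 in the MI arrays, against 9.42, 9.54 and 9.56 in the sham arrays (log2 fold change -0.46, SE 0.093, adjusted p = 0.0437).

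None of the 6 tested acyl-CoA synthetases and none of the 8 further thioesterases was called in either direction. Over all probe sets tested, 3.64% were called lower and 2.97% higher. Not called was Acsl5, a long-chain acyl-CoA synthetase, with 9.82, 9.89 and 9.49 in the MI arrays and 8.96, 8.90 and 9.24 in the sham arrays (log2 fold change 0.70, SE 0.15, adjusted p = 0.0510). Acsl4, a synthetase that favours arachidonic acid, read 8.71, 8.64 and 8.67 in the MI arrays and 8.39, 8.42 and 8.41 in the sham arrays and was not called (log2 fold change 0.27, SE 0.08, adjusted p = 0.103). In both the MI arrays lay above every sham array, the opposite order to the 37 oxidation genes. Another 3 of the 6, Acss2, Acsl6 and Acsm5, lay wholly below the sham arrays (log2 fold changes -0.35, -0.39 and -0.71), and the median of the 6 was -0.29. The Acsm5 signal lay under the highest background control in every array, which limits what its fall can show. Relative to the 14 cardiomyocyte markers 2 of the 6 synthetases were called higher, against 7.02% of all probe sets tested. The methods' t-test called 1 lower and 1 higher, against 0.479% and 0.346%. Acsf2, a synthetase counted among the further mitochondrial genes, was called lower (log2 fold change -0.57, adjusted p = 0.0379). Not called was Acot9, a mitochondrial thioesterase, with 8.93, 9.11 and 9.13 in the MI arrays and 8.85, 8.56 and 8.70 in the sham arrays (log2 fold change 0.35, SE 0.12, adjusted p = 0.129). Acot7, a cytosolic thioesterase abundant in brain, read 8.77, 8.59 and 8.65 in the MI arrays and 8.95, 9.22 and 9.09 in the sham arrays and was not called (log2 fold change -0.41, SE 0.11, adjusted p = 0.0801). Acsl1 had no probe set of its own under the rule and is not described.

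Respiratory chain subunits, the part of the mitochondrion that receives the electrons, were set beside the oxidation genes. Of 25 tested, 5 were called lower and none higher, against 3.64% and 2.97% of all probe sets tested, with a median log2 fold change of -0.56. In 21 of the 25, 84%, the MI arrays lay below the whole sham range, against 16.8% of all probe sets tested. The signal of Cyc1, cytochrome c1 of complex III, was 13.50, 13.18 and 13.59 in the MI arrays and 14.12, 14.52 and 14.39 in the sham arrays (log2 fold change -0.92, SE 0.16, adjusted p = 0.0301). For Uqcrc1, a core subunit of complex III, the MI arrays gave 16.97, 16.85 and 17.01 and the sham arrays 17.62, 17.72 and 17.73 (log2 fold change -0.75, SE 0.092, adjusted p = 0.0173). Ndufs3, a core subunit of complex I, read 12.07, 11.86 and 12.43 in the MI arrays, against 12.83, 12.89 and 12.95 in the sham arrays (log2 fold change -0.77, SE 0.16, adjusted p = 0.0447). The other 2 called were Uqcrfs1 and Uqcrc2, also of complex III. Without MI 3, 18 of the 25 were called lower, against 7.37% of all probe sets tested, and without any other single array none was. Relative to the 14 cardiomyocyte markers 2 were called lower, against 1.91% of all probe sets tested. The share called was 20% of the respiratory chain subunits and 60.5% of the fatty acid oxidation genes, and their difference was not tested. With quantile normalization 14 of the 25 subunits and 29 of the 38 oxidation genes were called lower, against 4.58% of all probe sets tested. With array weights, which lean mostly on MI 1 in the MI group, 24 of the 25 and all 38 were called lower, against 17%.

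**Figure D5:**
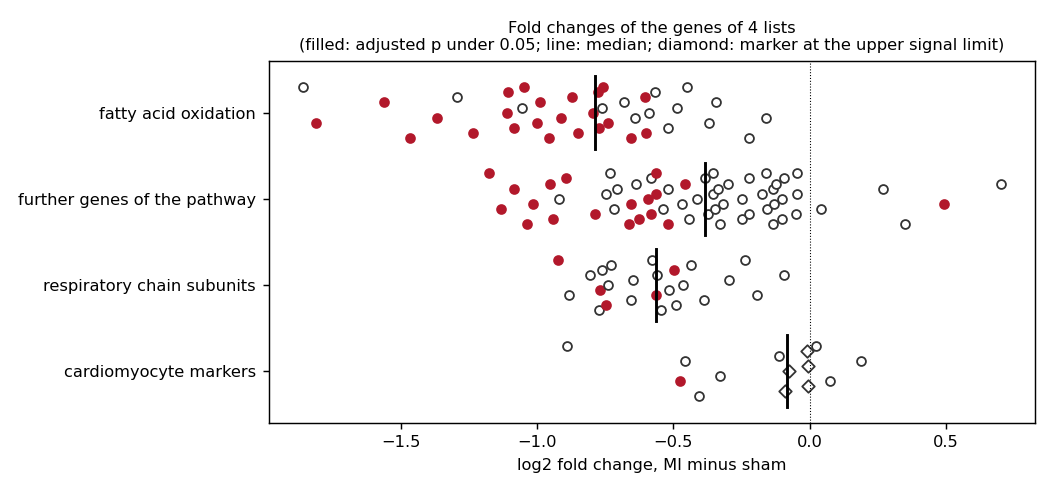
Log2 fold change (MI minus sham, x axis) of each gene in 4 lists (rows), filled where the adjusted p is under 0.05, with the median of a list as a vertical line and diamonds for cardiomyocyte markers at the upper limit of the signal. The medians lie at -0.79 for the 38 oxidation genes, -0.39 for 61 further genes of the pathway, -0.56 for 25 respiratory chain subunits and -0.08 for 14 cardiomyocyte markers.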

How the data were processed

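The authors hybridized total RNA from 3 MI and 3 sham samples to Affymetrix mouse transcriptome arrays and made log2 signals from them in Affymetrix Expression Console by RMA and SKETCH, which brings the probe values of all arrays to one distribution, before these were deposited. For the annotation of the array no genome build was found in these sources. The deposited table holds 72688 probe sets and 0 columns of other samples. Its values were used with no further normalization. After 6732 control probe sets were left out, 65956 transcript probe sets remained, and those with a mean log2 signal of at least 4.36, the 50th percentile, were tested. MI and sham were compared with limma 3.58.1 in R 4.3.3 through lmFit and eBayes, with group as the only term and two-sided p-values that were adjusted by Benjamini-Hochberg across the 32979 probe sets tested. A gene was called at an adjusted p under 0.05. The script was tested on simulated data. The precision is limited by the number of arrays.

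The 39 genes, their steps, the further lists and the markers were chosen with earlier results of these data known. Every called gene of the 39 is given with each array's value. Up to 4 called genes of each further list are named by size of the change, or 2 with the highest signal where none was called. Acss2, Acsl6, Acsm5, Acsf2, Bbox1, Cd163, Ryr2, Cidea and Retn were picked after their values were seen. A cardiomyocyte marker was taken to lie at the upper limit of the signal within 0.3 of the maximum on every array, or at a distance from it with an SD under 0.01. Other settings tried were a stricter filter (75th percentile, log2 signal 6.30) or none, the methods' t-test, trend and robust options or array weights in limma, centring on the median, quantile normalization, shifts by the cardiomyocyte markers, the replicate number as a block, a mean of all probe sets of a gene, and each array left out in turn. Promoters came from RefSeq (GRCm38.p6) and were searched on both strands. Figures were made with Python 3.11.15 and matplotlib 3.10.9.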

Additional observations from a re-analysis of the deposited data

How the results depend on the processing

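The number of the 38 genes called lower, 23 in the values as deposited, was 5 with the methods' t-test (Acacb, Acadm, Cpt1b, Etfdh and Hadha), 38 with array weights, and 0 to 32 with 1 array left out. It lay between 18 and 29 with no filter, the stricter filter, trend and robust options, centring, quantile normalization, a mean of all probe sets of a gene and both shifts by cardiomyocyte markers, and no gene was called higher in any fit. Fits with an array left out keep 2 arrays in a group. The log2 fold change of Acot13 turned to 0.024 relative to the 14 cardiomyocyte markers, to 0.11 relative to the 9 below the upper limit and to 0.0077 without MI replicate 1 (range -0.41 to 0.0077 with 1 array left out), and that of Acaa1a to 0.042 relative to the 9 markers. No other gene of the 38 changed direction, and no step median did. Over all probe sets, 1200 were called lower and 980 higher in the values as deposited, 158 and 114 with the methods' t-test and 5595 and 5165 with array weights. Replicate numbers in the labels were checked as pairs. The correlations of deviations from the group means were -0.29, 0.35 and -0.37 for numbers 1, 2 and 3. Deviations within a group of 3 arrays depend on each other, so these values cannot decide whether samples of the same number were paired. With the replicate block 0 of the 38 genes and 0 probe sets were called. At an unadjusted p under 0.05, 35 of the 38 were lower in that fit, against 3669 of all 32979 probe sets tested. The cause of these changes was not tested. Acad10 and Pecr lay near the background, which limits what their signals can show.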
